A study of Mus musculus with 24 samples.

Results

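The genes described here are 27 of the 55487 gene identifiers counted in mouse brain RNA: genes for receptors of the inhibitory transmitter GABA (γ-aminobutyric acid), for its synthesis, vesicular loading, uptake and breakdown, for the chloride transporters and the scaffold that its receptors depend on, and for interneurons, the local inhibitory neurons that release it. They were chosen by name, with earlier results of these data known. The list holds 5 alpha, 2 beta and 2 gamma subunits of the GABA-A receptor together with its delta, epsilon and theta subunits, both GABA-B subunits, 3 genes of synthesis and vesicular loading, 2 of uptake and breakdown, the scaffold gene Gphn, 2 chloride transporter genes and 5 interneuron genes. Other subunit genes of the GABA-A receptor are not part of the list, so every share given below is a share among the genes followed.

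All mice were wild-type and had undergone either olfactory bulbectomy, which takes out the olfactory bulbs, or sham surgery, and 3 tissues were sequenced. Hippocampus gave 4 libraries after bulbectomy and 5 after sham surgery, cortex gave 3 and 5, and cerebellum gave 2 and 5. The labels do not say whether libraries of 1 group came from separate animals. P-values therefore measure the spread between these libraries, which may be partly technical.

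GABA-A receptors are chloride channels assembled from several subunits, and the alpha, gamma and delta subunits they contain set whether a receptor sits at the synapse or outside it and how it responds to drugs. GABA-B receptors act more slowly, through G proteins. GABA is made from glutamate by the 2 glutamate decarboxylases, loaded into vesicles, cleared by membrane transporters and degraded by GABA transaminase, and the chloride gradient on which GABA-A inhibition rests is set by transporters that extrude or import chloride.

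Reads assigned to genes numbered 3255661 in hippocampus sham 1 and 138963332 in hippocampus sham 4, and 8145624 to 20230673 in the other 22 libraries. Levels are given as CPM, which divides the reads of each gene by its library's scaled total. Markers followed the tissue labels in most libraries: 6 cerebellar granule cell genes summed to 2520 to 3613 CPM in cerebellum and 23.8 to 99.5 CPM in hippocampus and cortex. Hippocampus sham 2 went against its label in part, with 48.4 CPM of 6 dentate granule cell genes against 131.9 to 272.5 CPM in the other hippocampus libraries and 29.0 to 55.2 CPM in cortex. Striatal medium spiny neurons are themselves GABA neurons, and 12 of their genes summed to 2461 CPM in hippocampus sham 1 and 3581 CPM in sham 2 against 207 to 421.5 CPM in the other 7 hippocampus libraries, so the differences that these libraries move are also given without them.

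The sham libraries first give the GABA make-up of each tissue. Dividing CPM by the kilobases of exon of each gene allows genes to be compared, and on that scale Gabbr1, which encodes the ligand-binding GABA-B subunit, was among the most abundant of the 27 in all 3 tissues. It measured 146.8 ± 19.99 CPM per kilobase in hippocampus (SD, n = 5), 150.9 ± 15.6 in cortex and 147.1 ± 32.4 in cerebellum, called in no tissue contrast. Pvalb, the calcium-binding protein of fast-spiking interneurons and of Purkinje cells and other cerebellar neurons, measured 116.2 ± 37.0 and 141.5 ± 28.6 CPM per kilobase in hippocampus and cortex and 2571 ± 1501 in cerebellum. Slc12a5, the neuronal potassium-chloride cotransporter that extrudes chloride, measured 69.5 ± 12.7, 93.5 ± 16.4 and 83.8 ± 17.0 CPM per kilobase. The importer Slc12a2 lay at 1.72 ± 0.90 in hippocampus, 1.32 ± 0.44 in cortex and 2.72 ± 3.28 in cerebellum, where sham 1 alone reached 8.54. Gabre and Gabrq, the epsilon and theta subunits, were below 0.5 CPM per kilobase in every sham library.

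**Figure D1:**
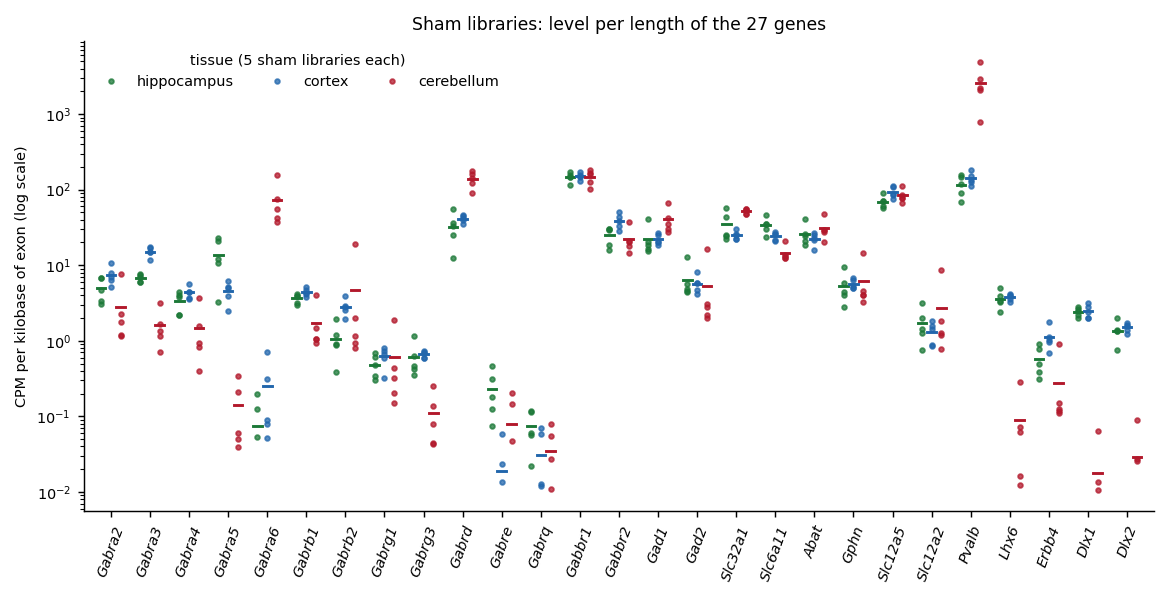
Level of each of the 27 genes in the sham libraries, in CPM per kilobase of exon on a log axis (points: 5 libraries per tissue, libraries without a read not drawn; short lines: means). Gabra6, Gabrd and Pvalb lie highest in cerebellum, Gabra3, Gabra5, Lhx6, Dlx1 and Dlx2 lowest there, and Gabbr1 is near 150 CPM per kilobase in all 3 tissues.

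The alpha subunits distinguished the tissues most plainly. Of the summed level per length of the 5 alpha genes followed, Gabra5, whose receptors are known for tonic inhibition in the hippocampus, took 44.2 ± 13.2% in sham hippocampus (SD, n = 5), ahead of Gabra3 with 26.1 ± 9.40%, Gabra2 with 17.3 ± 2.23% and Gabra4 with 12.1 ± 3.24%. In sham cortex the order was Gabra3 with 47.9 ± 3.72%, Gabra2 with 23.2 ± 4.19%, and Gabra5 and Gabra4 level at 14.1 ± 2.91% and 14.0 ± 2.75%. In sham cerebellum Gabra6, the subunit of cerebellar granule cells, took 92.4 ± 1.98%, and no other alpha gene passed 5.55% in any sham library. Hippocampus sham 2 stood between the patterns, with 22.2% Gabra5 and 40.8% Gabra3 where the other 4 sham libraries held 44.1% to 55.3% and 18.3% to 29.9%. The bulbectomy libraries kept their tissue's order at the top: Gabra5 led with 43.0% to 48.4% in the 4 hippocampus libraries, Gabra3 with 42.7% to 47.4% in the 3 cortex libraries, and Gabra6 with 94.4% and 95.0% in the cerebellum.

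**Figure D2:**
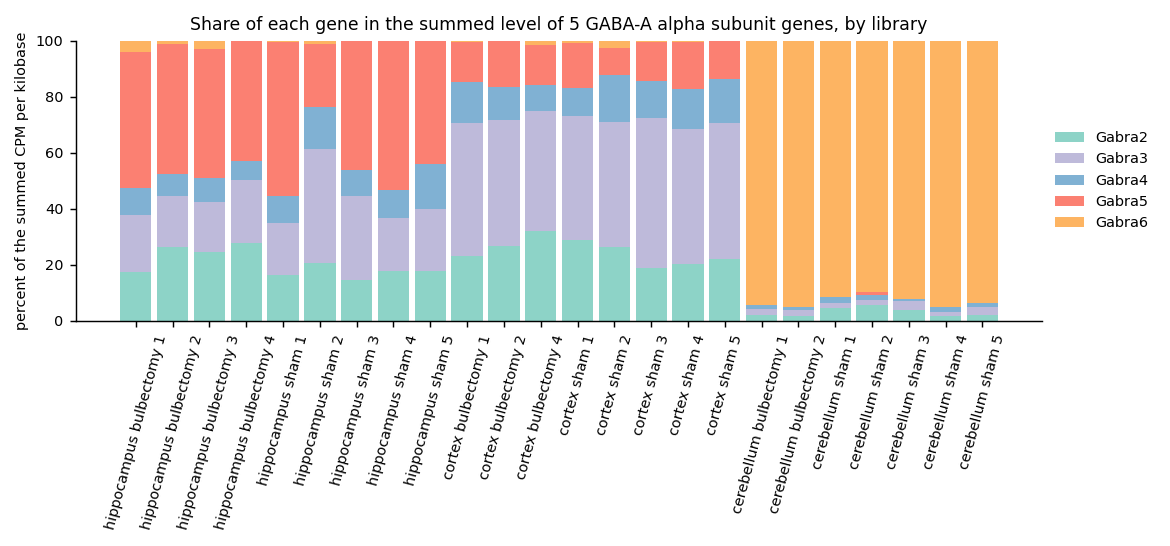
Share of Gabra2 to Gabra6 in their summed CPM per kilobase, in percent, for each of the 24 libraries. Gabra6 fills at least 89.9% of every cerebellum bar, Gabra3 is the widest band of every cortex bar, and Gabra5 of every hippocampus bar but that of sham 2.

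The sequence upstream of the annotated starts also differs among these alpha genes. A RefSeq promoter window (GRCm38.p6) was found for 24 of the 27 genes, 32 windows in all. Abat, Gabrd and Slc12a2 have none. The 250 bases before the start are shown for the alpha genes that led or followed in a tissue and for Dlx2, whose window is rich in CG, each read 5′ to 3′ on the minus strand, where all 5 genes lie. Capitals mark the dinucleotide CG and, where present, the letters TATAAA or their reverse complement TTTATA.
Gabra2, chr5:71095850-71096099: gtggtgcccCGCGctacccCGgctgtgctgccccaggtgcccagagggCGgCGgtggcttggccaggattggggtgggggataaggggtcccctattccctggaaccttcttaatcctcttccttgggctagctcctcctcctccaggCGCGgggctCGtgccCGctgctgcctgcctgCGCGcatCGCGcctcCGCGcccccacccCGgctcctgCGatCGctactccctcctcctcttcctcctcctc
Gabra3, chrX:72656920-72657169: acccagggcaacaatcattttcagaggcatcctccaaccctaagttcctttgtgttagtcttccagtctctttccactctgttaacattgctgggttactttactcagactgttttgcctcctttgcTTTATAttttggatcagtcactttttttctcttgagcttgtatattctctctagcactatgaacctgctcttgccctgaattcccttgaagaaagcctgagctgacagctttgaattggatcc
Gabra5, chr7:57510060-57510309: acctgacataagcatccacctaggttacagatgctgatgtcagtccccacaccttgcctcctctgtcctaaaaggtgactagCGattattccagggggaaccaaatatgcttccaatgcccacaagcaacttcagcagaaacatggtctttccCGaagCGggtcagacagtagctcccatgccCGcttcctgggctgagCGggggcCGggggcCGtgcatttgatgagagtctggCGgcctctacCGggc
Gabra6, chr11:42321073-42321322: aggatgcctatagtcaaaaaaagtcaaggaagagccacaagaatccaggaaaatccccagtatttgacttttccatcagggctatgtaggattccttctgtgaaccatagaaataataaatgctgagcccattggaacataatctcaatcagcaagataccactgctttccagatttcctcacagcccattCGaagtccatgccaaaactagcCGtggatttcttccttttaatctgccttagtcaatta
Dlx2, chr2:71546755-71547004: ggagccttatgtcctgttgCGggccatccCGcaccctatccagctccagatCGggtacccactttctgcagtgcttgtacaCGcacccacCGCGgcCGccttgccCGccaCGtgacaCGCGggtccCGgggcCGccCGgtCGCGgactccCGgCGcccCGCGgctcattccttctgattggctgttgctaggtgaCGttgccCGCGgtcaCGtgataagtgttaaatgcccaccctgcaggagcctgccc
CG occurs 18 times in the Gabra2 window, 9 times in that of Gabra5, 2 times in that of Gabra6, 24 times in that of Dlx2 and 0 times in that of Gabra3. Over the 32 windows of the members the median was 13, against 6 over all 32851 windows of the table. The Gabrg1 window holds 1. TATAAA, searched on both strands, stands in 4 member windows, those of Gabra3 (2 overlapping windows), Gad1 and Gabrb2, and in 12.37% of all windows of this length. TAATTA, a core read by homeodomain factors such as the Dlx proteins, reads the same on both strands and stands in 1 member window, that of Gabrg1, and in 4.84% of all. These matches describe letters only.

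Tissue contrasts between sham libraries were tested with edgeR's quasi-likelihood test, with Benjamini-Hochberg adjustment over 15142 genes; called means that the adjusted p fell below 0.05. Against cerebellum, 13 of the 26 members tested were called in hippocampus (background 28.4% of all genes): 8 higher (15.5% of all genes were) and 5 lower (12.9%). Against cerebellum, cortex had 17 of 26 called (background 34.7%), 12 higher (16.8%) and 5 lower (17.9%). Hippocampus and cortex differed in 1 of 26 (background 3.3%), none higher (2.09%) and 1 lower (1.21%). Gabrq was too low to test.

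Among the alpha subunits, Gabra6 was lower in hippocampus than in cerebellum by a log2 difference of -10.22 ± 0.80 (SE; edgeR adjusted p = 7.07e-08), with 26 reads over the 5 sham hippocampus libraries, 2 of them at 0, against 73.0 ± 48.6 CPM per kilobase in cerebellum. In cortex the difference from cerebellum was -8.21 ± 0.68. Gabra5 lay 6.70 ± 0.63 higher in hippocampus than in cerebellum and 5.09 ± 0.60 higher in cortex, where cerebellum held 27 reads over 5 libraries. Gabra3 was the member that differed between hippocampus and cortex, at 6.78 ± 0.74 against 15.1 ± 2.27 CPM per kilobase, a log2 difference of -1.16 ± 0.28 (edgeR adjusted p = 0.0269). The ranges of its 5 and 5 libraries, 6.01 to 7.55 and 11.7 to 17.6, did not meet, but the adjusted p rose above 0.05 when any of 8 of the 10 hippocampus and cortex sham libraries was left out (0.0502 to 0.0757), and to 0.101 without hippocampus sham 1 and 2. Gabra5 went the other way between these tissues, 13.8 ± 7.93 against 4.53 ± 1.38 CPM per kilobase, and missed the threshold (log2 difference 1.61 ± 0.47, adjusted p = 0.0736), while it passed without hippocampus sham 2 (1.86, adjusted p = 0.0146). Gabra2 and Gabra4 were called higher in cortex than in cerebellum, by 1.41 ± 0.45 and 1.58 ± 0.43. The Gabra2 call was lost without cortex sham 1 (adjusted p = 0.0609) or cerebellum sham 2, 3, 4 or 5 (0.0508 to 0.0589). It was also lost without a low-count filter (0.0508). Of 16 alternative runs 10 kept it, and the adjusted p ranged from 7.1e-06 to 0.0609. In hippocampus Gabra2 and Gabra4 measured 0.82 ± 0.45 and 1.18 ± 0.43 above cerebellum without being called (adjusted p = 0.2 and 0.0523). Both were called without cerebellum sham 1 (1.62 and 1.85, adjusted p = 0.000211 and 0.00013).

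Of the other receptor subunits, Gabrd, the delta subunit of extrasynaptic receptors, measured 138.2 ± 34.0 CPM per kilobase in cerebellum, 41.4 ± 4.57 in cortex and 32.2 ± 15.7 in hippocampus, and both differences from cerebellum passed the test (edgeR adjusted p = 0.000205 and 4.33e-05). Gabrg3 and Gabrb1, a gamma and a beta subunit, were higher in hippocampus and in cortex than in cerebellum, Gabrg3 by 2.42 ± 0.45 and 2.58 ± 0.45 and Gabrb1 by 1.10 ± 0.33 and 1.38 ± 0.33 on the log2 scale. Gabrb2, another beta subunit, rested on 1 library: cerebellum sham 1 held 18.8 CPM per kilobase, and the other 4 cerebellum sham libraries 0.80 to 2.003. With all libraries its hippocampus level was called lower than cerebellum (-2.11 ± 0.77, adjusted p = 0.0492), and without cerebellum sham 1 the difference was -0.14 (adjusted p = 0.779). Gabbr2, the GABA-B subunit that couples to G proteins, was called higher in cortex than in cerebellum (38.9 ± 8.51 against 22.2 ± 8.91 CPM per kilobase). The log2 difference was 0.81 ± 0.26 (adjusted p = 0.0208). This call was lost without cortex sham 1 or cerebellum sham 2 or 4 (0.0599, 0.0545 and 0.0553). Of 16 alternative runs 13 kept it, and the adjusted p ranged from 0.000483 to 0.0599.

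Genes of the GABA neurons themselves also separated the cerebellum. Gad1, the glutamate decarboxylase that supplies most GABA, was at 40.2 ± 15.6 CPM per kilobase in cerebellum and at 22.2 in both other tissues (SD 10.4 in hippocampus and 3.75 in cortex), called in both contrasts (edgeR adjusted p = 0.0277 and 0.024). The Gad1 call was lost for hippocampus without its sham 2, 3, 4 or 5 (adjusted p = 0.0574 to 0.0717) and for cortex without its sham 3 or 4 (0.0527 and 0.0602). Slc32a1, the vesicular GABA transporter, was at 51.8 ± 4.42, 25.3 ± 3.31 and 34.7 ± 15.3 CPM per kilobase in cerebellum, cortex and hippocampus, and only the cortex contrast passed (log2 difference -1.03 ± 0.23, adjusted p = 0.00197). In hippocampus its adjusted p was 0.0653 with all libraries and 6.89e-05 (log2 difference -1.10) without sham 1 and 2. Slc6a11, a GABA transporter of astrocytes, ran in the opposite direction, 33.9 ± 8.06 in hippocampus, 24.5 ± 2.95 in cortex and 14.5 ± 3.65 CPM per kilobase in cerebellum (both contrasts called, adjusted p = 0.000102 and 0.00467). Lhx6, Dlx1 and Dlx2, transcription factors of forebrain interneurons from the ganglionic eminences, were close to absent from cerebellum. Its 5 sham libraries held 28, 6 and 5 reads in all. Their means were 0.089, 0.018 and 0.029 CPM per kilobase in cerebellum, against 3.57, 2.40 and 1.365 in hippocampus. Their fitted differences of 5.38 to 7.21 on the log2 scale rest on those few reads. Erbb4, the neuregulin receptor of many interneurons, was called higher in cortex than in cerebellum (1.99 ± 0.55, adjusted p = 0.0101). Abat, Gphn, Gad2 and both chloride transporters were called in no tissue contrast of the main fit. Gad2 stood at 111.1 CPM in cerebellum sham 1 (next 18.5). Without this library Gad2 was called higher in hippocampus and cortex than in cerebellum (1.33 and 1.17, edgeR adjusted p = 0.00141 and 0.00257). With exon length and GC corrected for, Slc12a5 was called lower in hippocampus than in cortex and cerebellum (adjusted p = 0.0165 and 0.00758). Slc12a2 and Abat were then called lower in cortex than in cerebellum (adjusted p = 0.00991 and 0.0107). The correction also added Gabra5, higher in hippocampus than in cortex (edgeR adjusted p = 0.0291). Gabra2, Gabra4 and Erbb4 were added as higher in hippocampus than in cerebellum (edgeR adjusted p = 0.0118, 0.000495 and 0.000182). Of all 15142 genes, calls rose from 500 to 857 between hippocampus and cortex. Against cerebellum they rose from 4296 to 5853 for hippocampus and from 5251 to 6877 for cortex.

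Samples with the same number deviated together between sham hippocampus and sham cerebellum (correlation of deviations 0.249 to 0.615 for the 5 numbers). For numbers 1 to 4, sham cortex gave 0.249 to 0.61 with hippocampus and 0.331 to 0.558 with cerebellum. Number 5 gave -0.251 and -0.321. With the replicate number as a block, 16 members were called between sham hippocampus and sham cerebellum in place of 13. Over all 15142 genes, 5304 were called in place of 4296. Gabra2, Gabra4, Slc32a1 and Erbb4 were gained (edgeR adjusted p = 0.0216, 0.0082, 0.0306 and 0.0173) and Gabrb2 was lost (edgeR adjusted p = 0.232).

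In the hippocampus after bulbectomy, 1 of the 25 members tested was called, Abat, which fell (1.55% of all 13985 genes tested were called). Of the 25, 19 measured lower and 6 higher. Their median log2 fold change was -0.33 against 0.02 over all genes, of which 51.6% were higher. An unadjusted p under 0.05 was reached by 9 of the 25 members and by 2794 of all 13985 genes. Fewer cells of a type and less RNA per cell cannot be told apart in these bulk samples. Without sham 1 and 2 the median was -0.24 with 18 of 25 lower, and 1 member was called, Gabrb2. In 6 members no bulbectomy library overlapped a sham library (9.82% of all genes): Gabrb1 and Pvalb lay higher and Gad1, Gad2, Abat and Slc12a5 lower.

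Abat (chromosome 16, 8513429 to 8621568) encodes GABA transaminase, the enzyme that degrades GABA. It measured 99.0, 78.5, 96.1 and 113.7 CPM in the 4 bulbectomy libraries and 282.1, 190.6, 154.2, 174.4 and 136.7 CPM in the 5 sham libraries. Every bulbectomy library was below every sham library, and sham 1, with high striatal markers, was the highest. The log2 fold change was -0.95 ± 0.21 (SE; adjusted p = 0.0417 by edgeR's quasi-likelihood test with Benjamini-Hochberg adjustment). The adjusted p was 0.106 to 0.153 without any 1 of the bulbectomy libraries, 0.0759 without sham 4, and 0.0507 (log2 fold change -0.68) without sham 1 and 2, with a sham mean of 155.1 CPM in place of 187.6 CPM. Slc6a11, the astrocyte transporter, measured 189.9 ± 45.4 CPM against 159.7 CPM in sham (log2 fold change 0.25 ± 0.21, adjusted p = 0.526).

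Both decarboxylases lay below sham without passing the edgeR test, and the vesicular transporter overlapped sham. DESeq2, run as an alternative, called Gad2 (-1.38, DESeq2 adjusted p = 0.00659) and not Gad1. Gad1 measured 89.6, 94.7, 70.6 and 110.4 CPM after bulbectomy and 279.0, 147.9, 118.7, 127.8 and 111.4 CPM in sham. The groups came close to each other without overlapping, and sham 1 stood far above the rest. Gad2, the decarboxylase enriched at nerve terminals, measured 13.5, 12.5, 6.62 and 21.3 CPM against 67.3, 27.04, 24.9, 30.4 and 25.3 CPM, again with sham 1 far above. Log2 fold changes were -0.78 ± 0.26 for Gad1 and -1.36 ± 0.37 for Gad2 (edgeR adjusted p = 0.126 and 0.0845), and -0.39 and -0.999 without sham 1 and 2 (edgeR adjusted p = 0.248 and 0.0936). Slc32a1 measured 71.5, 71.3, 75.2 and 99.4 CPM against 111.5, 151.6, 64.5, 57.6 and 67.4 CPM, so that the 2 sham libraries with striatal markers were above and the other 3 below every bulbectomy library. Its log2 fold change was -0.19 ± 0.27 with all libraries and 0.33 without sham 1 and 2 (edgeR adjusted p = 0.723 and 0.324), so its direction rested on those libraries. The log2 ratio of Gad2 to Slc32a1 reads was -3.49 to -2.22 in the bulbectomy libraries and -2.48 to -0.73 in sham.

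**Figure D3:**
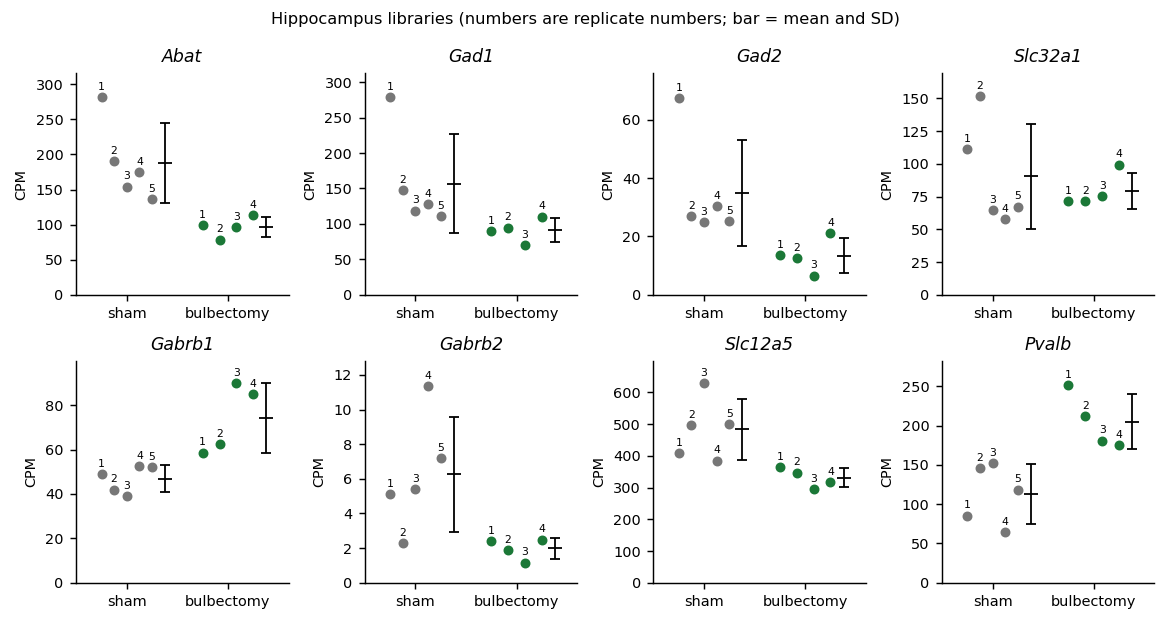
CPM of 8 members in the hippocampus libraries (points, labelled with replicate numbers; bars: mean and SD; sham n = 5, bulbectomy n = 4). Abat, Gad1, Gad2 and Slc12a5 lie lower and Gabrb1 and Pvalb higher in every bulbectomy library, while sham 1 and 2 stand above the other sham libraries for Slc32a1.

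The beta subunits parted in direction. Gabrb1 (chromosome 5, 71658113 to 72149037) measured 58.7, 62.4, 89.9 and 85.1 CPM after bulbectomy and 49.1, 42.0, 39.1, 52.4 and 52.1 CPM in sham, above sham in 4 of 4 libraries. The fold change was 0.66 ± 0.17 on the log2 scale (adjusted p = 0.0679 by edgeR and 0.0232 by DESeq2), and 0.63 without sham 1 and 2. Gabrb2 (chromosome 11, 42419757 to 42629028) was scarce, at 2.40, 1.90, 1.17 and 2.49 CPM against 5.13, 2.31, 5.41, 11.3 and 7.18 CPM, and only sham 2 fell among the bulbectomy values. Its fold change was -1.68 ± 0.42 (adjusted p = 0.0597 by edgeR and 0.00659 by DESeq2), and edgeR called it without sham 1 and 2 (-2.02, adjusted p = 0.00929). Gabrb1 and Gabra4 start head to head on opposite strands, and 0.3% of the exon bases of Gabrb1 lie in exons of Gabra4. Gabra4, an alpha subunit of extrasynaptic receptors, measured 12.4 ± 1.90 CPM after bulbectomy and 18.8 CPM in sham, with a fold change of -0.60 ± 0.24 (adjusted p = 0.19).

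The remaining receptor genes gave smaller differences. Gabra2 measured 46.0 ± 13.8 CPM after bulbectomy and 35.0 CPM in sham, a log2 fold change of 0.40 ± 0.26, and Gabra3 and Gabra5 gave -0.33 ± 0.20 and -0.15 ± 0.43. Gabra5 ranged from 9.25 CPM in sham 2 to 61.3 CPM in sham 1, wider than the whole bulbectomy group. Gabrg1, Gabrg3, Gabrd and Gabbr2 measured lower (-0.59, -0.51, -0.32 and -0.35) and Gabre and Gabbr1 higher (0.45 and 0.17), all with an edgeR adjusted p of 0.352 or more. Gabra6 did not reach the count needed for the test. It had 24, 5, 12 and 1 reads (2.62, 0.59, 1.56 and 0.12 CPM) after bulbectomy and 0 to 0.46 CPM in sham, and the cerebellar granule cell markers summed to 56.4 to 99.5 CPM in the same bulbectomy libraries against 23.8 to 41.1 CPM in sham. Their part in the Gabra6 reads was not tested.

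Chloride transporters both measured lower. Slc12a5 (chromosome 2, 164960802 to 164999731) was at 364.2, 347.0, 295.3 and 318.2 CPM after bulbectomy and at 407.6, 495.9, 630.2, 385.3 and 501.4 CPM in sham, with no overlap and with sham 1 and 2 inside the sham range. The log2 fold change was -0.55 ± 0.18 (adjusted p = 0.113 by edgeR and 0.0417 by DESeq2), and -0.61 without sham 1 and 2. Slc12a2, the importer, gave -0.98 ± 0.32 (adjusted p = 0.123) from 8.70 ± 1.34 CPM after bulbectomy, and -0.89 (edgeR adjusted p = 0.0553) without sham 1 and 2. Sham 2, at 7.86 CPM, was again the sham library among the bulbectomy values, and the other 4 held 13.0 to 30.8 CPM. Gphn, which encodes the receptor scaffold gephyrin, gave -0.36 ± 0.32.

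Pvalb (chromosome 15, 78191114 to 78206400) was the interneuron gene that lay higher. Its levels were 251.8, 212.0, 180.9 and 175.2 CPM after bulbectomy and 85.6, 145.9, 152.8, 64.5 and 118.6 CPM in sham, a log2 fold change of 0.85 ± 0.24 (adjusted p = 0.0777 by edgeR and 0.0235 by DESeq2), and 0.88 without sham 1 and 2. All 4 bulbectomy libraries exceeded all 5 sham libraries. The other interneuron genes measured lower: Lhx6, Dlx1 and Dlx2 gave -0.24 ± 0.24, -0.16 ± 0.22 and -0.32 ± 0.34, and Erbb4 -0.75 ± 0.36 (adjusted p = 0.266). Pvalb is also known from neurons outside the hippocampus, so markers of other tissues were compared between the groups. Medial habenula genes summed to 36.0 to 64.4 CPM after bulbectomy against 6.40 to 12.5 CPM in sham (exact two-sided permutation test, p = 0.00794, the smallest that 126 arrangements allow, adjusted p = 0.155 over 13 marker lists in 3 tissues), and Pou4f1 was at 0 in 4 of the 5 sham libraries. Thalamus genes summed to 189.3 to 386.9 against 54.7 to 303.9 CPM (adjusted p = 0.483), with sham 3 and 5 inside the bulbectomy range. Cerebellar granule cell genes averaged 67.8 against 36.4 CPM, with the same permutation p and adjusted p as medial habenula genes. Purkinje cell genes went the other way, 155.7 against 341.3 CPM (permutation p = 0.0317, adjusted p = 0.232). Choroid plexus, cortical layer and striatal genes had permutation adjusted p of 0.516, 0.993 and 0.812. Their part in the Pvalb difference was not tested.

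**Figure D4:**
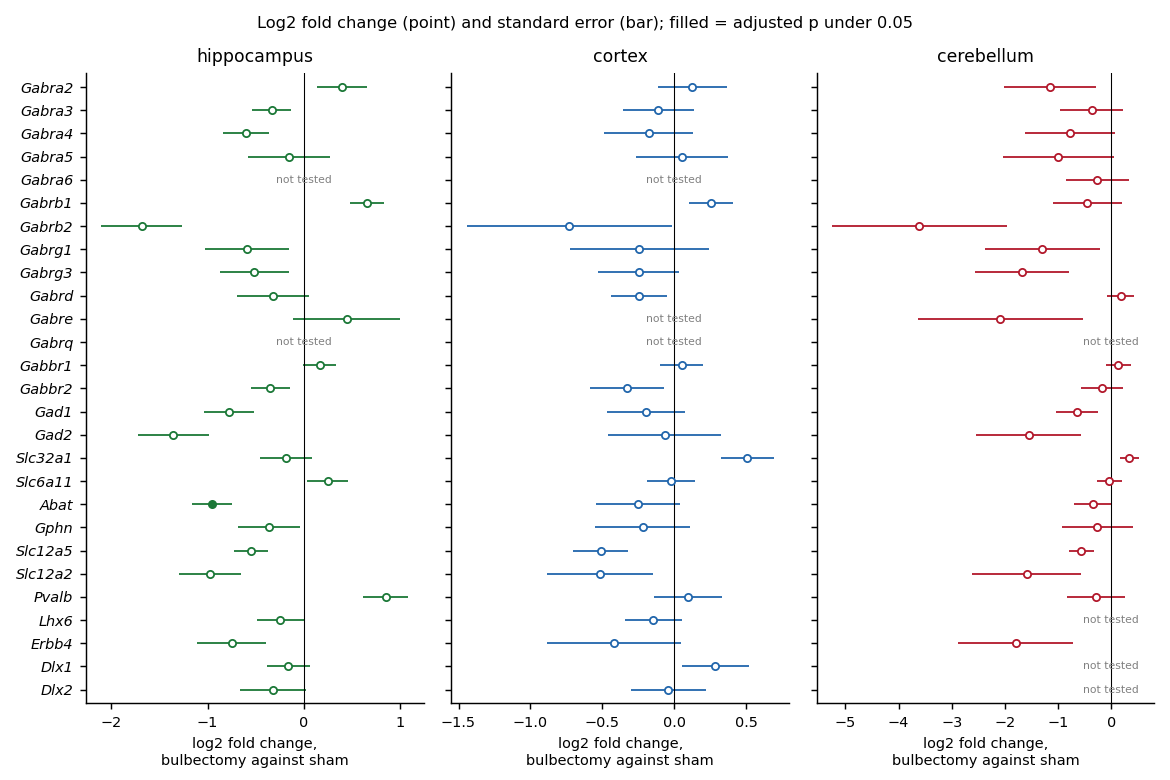
Log2 fold change, bulbectomy against sham, of the 27 genes in each tissue (points). Bars show a standard error derived from the edgeR F statistic, and filled points an adjusted p under 0.05. The horizontal scales differ between panels. Abat in hippocampus is the single filled point, and 19 of 25, 17 of 24 and 20 of 23 tested genes lie left of 0.

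In the cortex no member was called (0.0202% of 14847 genes were), and DESeq2 called none either. An unadjusted p under 0.05 was reached by Slc32a1 and Slc12a5, 2 of the 24 tested, and by 877 of all 14847 genes (5.91%). Slc32a1 measured 79.6, 118.9 and 86.5 CPM after bulbectomy and 68.3, 58.6, 66.1, 58.2 and 82.9 CPM in sham, a log2 fold change of 0.51 ± 0.18 (edgeR adjusted p = 0.736). Sham 5 lay among the bulbectomy values. Slc12a5 measured 564.7, 384.1 and 430.3 CPM against 591.3, 781.3, 758.7, 602.2 and 541.0 CPM, a log2 fold change of -0.51 ± 0.19 (adjusted p = 0.768), with 1 bulbectomy library above the lowest sham library. The single member without overlap was Gabrb1 (3.64% of all genes), at 67.7, 68.1 and 69.9 CPM against 48.7 to 67.2 CPM in sham, a log2 fold change of 0.26 ± 0.15 (adjusted p = 0.863).

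The 3 cortex bulbectomy libraries were far apart for several members. Gabrb2 measured 24.99, 3.80 and 1.27 CPM in bulbectomy 1, 2 and 4 against 11.6 to 24.3 CPM in sham. Gad2 measured 48.3, 32.9 and 9.27 CPM against 23.3 to 46.2 CPM, and Erbb4 19.0, 6.27 and 3.42 CPM against 7.98 to 21.4 CPM. In each of these genes bulbectomy 4 was below every sham library, and bulbectomy 1 was in the upper part of the sham range or above it. The members' median log2 fold change was -0.16 with 17 of 24 lower, and without bulbectomy 4 it was 0.05 with 8 of 24 lower, so the balance of directions in the cortex rested on that library. Without bulbectomy 1, Gabrb2 was called lower (-2.73, adjusted p = 0.0091). Over all 14847 genes the median was 0.01.

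In the cerebellum no member was called among 23 tested (0.0131% of 15295 genes were), and DESeq2 called none. The unadjusted p was under 0.05 for 1 member, Slc12a5, and for 454 of all 15295 genes (2.97%), and all adjusted p of the members were 1. Of the 23, 20 measured lower, with a median of -0.57 against -0.06 over all genes, but cerebellum sham 1 set much of this. Gabrb2 measured 2.12 and 3.38 CPM after bulbectomy and 137.3, 6.16, 5.24, 13.4 and 7.69 CPM in sham 1 to 5. Gad2 measured 13.1 and 10.4 CPM against 111.1, 12.2, 18.5, 17.1 and 13.4 CPM. Sham 1 was the highest sham library for these and for Gabra2, Gabra6, Abat, Slc12a2 and Erbb4, and the lowest for Pvalb, at 928 CPM against 2285 to 5287 CPM. Without sham 1 the members' median was -0.11, with 14 of 22 lower, and the fold change of Gabrb2 went from -3.61 ± 1.65 to -1.55 (edgeR adjusted p = 0.155).

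**Figure D5:**
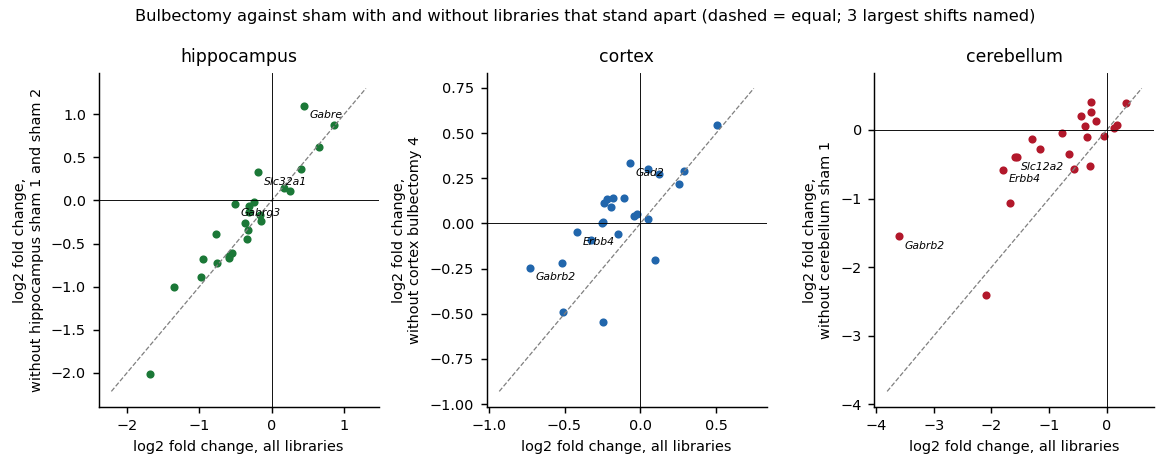
Log2 fold changes of the tested members with all libraries (horizontal) and without the libraries named on the vertical axis, for hippocampus, cortex and cerebellum. Points above the dashed line of equality have a higher value once the library is left out: the median goes from -0.57 to -0.11 in cerebellum without sham 1 and from -0.16 to 0.05 in cortex without bulbectomy 4.

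In the cerebellum 4 members had no overlap, all lower (10.9% of all genes): Gabrb2, Gabrg3, Erbb4 and Slc12a5. Without sham 1, Gabrb2, Gabrg3 and Erbb4 gave -1.55, -1.06 and -0.58 in place of -3.61, -1.68 and -1.80, and Slc12a5 kept its value. It measured 391.7 and 501.8 CPM against 659.8, 604.7, 853.9, 523.9 and 661.1 CPM, a log2 fold change of -0.57 ± 0.24 with sham 1 and -0.58 without (edgeR adjusted p = 1 and 0.35). Gabra6, the leading alpha gene of the tissue, measured 195.6 and 132.6 CPM against 445.6, 96.1, 106.5, 195.4 and 144.3 CPM (-0.27 ± 0.59), so 1 bulbectomy library lay inside the range of sham 2 to 5 and the other just above its upper end. Gabrd and Slc32a1 measured higher by 0.17 ± 0.25 and 0.34 ± 0.18.

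Slc12a5 measured lower after bulbectomy by nearly the same amount in the 3 tissues, -0.55, -0.51 and -0.57. The libraries were separate, but the labels do not say whether tissues share animals. The main edgeR test called it in none of them. In hippocampus DESeq2, voom and an edgeR fit with the length and GC trend removed called it (adjusted p = 0.0417, 0.0442 and 0.0425). No other of the 20 alternatives there did, and without sham 1 and 2 the edgeR adjusted p was 0.1. Whether the effect of bulbectomy differed between tissues was tested by interaction terms in 1 fit of all 24 libraries. None of 16564 genes was called by edgeR (0% in each of the 3 contrasts), so none of the 26 members tested was. DESeq2 called 3 genes, 2 and 0, none of them members. Of the members, 2 had an unadjusted p under 0.05 for hippocampus against cortex (Gabra6 and Slc32a1), 3 for hippocampus against cerebellum (Gabra2, Gabra6 and Gabrb1) and 2 for cortex against cerebellum (Gabre and Dlx2), against 466, 511 and 276 of all genes. No effect was thus shown to differ between tissues.

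Fold changes across genes varied with exon length and GC content. In hippocampus the Spearman correlation of the log2 fold change with exon length was -0.35 over the 25 members and -0.33 over 13978 genes. With GC content it was 0.24 and 0.28. In cortex the correlations were -0.39 with length and 0.10 with GC over 24 members, and -0.26 and 0.22 over 14835 genes. In cerebellum they were -0.45 and 0.54 over 23 members, and -0.26 and 0.28 over 15276 genes. Points share libraries and genes are not independent. When a trend over length and GC content was removed from each library, the hippocampal fold change was -0.80 for Abat, 0.94 for Gabrb1 and -0.53 for Slc12a5, all called (edgeR adjusted p = 0.0339, 0.0176 and 0.0425), -1.11 for Gad2 and 0.65 for Pvalb (adjusted p = 0.0834 and 0.208). The median of the 25 members was -0.35 with the trend removed and -0.33 without.

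Other genes of the pathway came from a list of 23. In hippocampus 20 were tested, 11 higher and 9 lower, none called by edgeR and 6 with an unadjusted p under 0.05, as had 2794 of 13985 genes. Nlgn2, the adhesion protein of inhibitory synapses, measured 269.6 ± 21.6 against 183.9 ± 12.5 CPM (log2 fold change 0.55 ± 0.14, edgeR adjusted p = 0.0604). In cortex 19 were tested, 9 higher and 10 lower, with Insyn1 and Nlgn2 at the smallest p (0.51 ± 0.18 and 0.36 ± 0.16, adjusted p = 0.711 and 0.787). In cerebellum 5 of 19 were higher and 14 lower, with a median of -0.22 against -0.06 over all genes, and the same pair had the smallest p (0.36 ± 0.16 and 0.50 ± 0.27, adjusted p = 1 for both). Insyn1 is a component of inhibitory synapses.

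Of 29 other interneuron genes, 28 were tested in hippocampus, where edgeR called 3, and 1.55% of all genes. Sncg, γ-synuclein, rose (12.7 ± 1.89 against 5.46 ± 1.69 CPM, log2 fold change 1.26 ± 0.25, adjusted p = 0.0297), as did Maf, a transcription factor of interneurons and other cells (44.0 ± 7.28 against 24.9 ± 5.15 CPM, 0.83 ± 0.19, adjusted p = 0.047). Reln, the secreted glycoprotein reelin, fell (34.4 ± 7.07 against 61.5 ± 8.34 CPM, -0.84 ± 0.18, adjusted p = 0.0364). Without sham 1 and 2, Sncg and Reln were called (edgeR adjusted p = 0.0144 and 0.0264) and Maf was not (0.077). Without any 1 of the bulbectomy libraries none of the 3 was called (edgeR adjusted p = 0.0622 to 0.109 for Sncg, 0.0758 to 0.162 for Maf and 0.0633 to 0.121 for Reln). Nor was any of them without sham 3 or sham 4, and Sncg was not called without sham 5 (0.0538) nor Maf without sham 1 (0.0679). The list as a whole had 11 higher and 17 lower. In cortex 20 of 27 were higher and none was called by edgeR. Crhbp, a binding protein of corticotropin-releasing hormone, and Npy, neuropeptide Y, had the smallest p (57.0 ± 13.6 against 21.7 ± 6.49 CPM and 170.9 ± 88.3 against 62.8 ± 14.7 CPM, adjusted p = 0.176 and 0.333). In cerebellum 18 were tested, 7 higher, with Cplx1 and Reln at the smallest p (0.38 ± 0.19 and -0.54 ± 0.30, adjusted p = 1).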

How the data were processed

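Single-end RNA-seq libraries of 3 dissected brain tissues were compared within tissue. Per the labels' protocols, samples of RIN 8 or more went into directional polyA libraries. The values are counts per Ensembl gene as deposited, not normalized, which the authors made with Trimmomatic, STAR and featureCounts on mm10, per the submitters' processing notes; their versions, annotation and strand setting were not given in the sources used here. Without the strand setting, reads of Slc32a1 and its antisense neighbour Gm14205, which overlaps 24.9% of its exon bases, cannot be told apart, nor 6.2% of those of Dlx1 and 5.0% of those of Gabra5. GENCODE M21 on GRCm38 gave symbols for 55141 of 55487 identifiers, 1-based coordinates, and the length and GC content of exons. Assignment totals were kept out of library sizes.

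After filterByExpr and TMM scaling, genes were tested by edgeR 4.0.16 (robust glmQLFit, glmQLFTest; R 4.3.3), two-sided, adjusted by Benjamini-Hochberg over all genes tested and called at an adjusted p under 0.05. Each tissue had its own fit, sham tissues shared 1 fit, and interactions used all 24 libraries. Standard errors were derived as the absolute log2 fold change divided by the square root of the F statistic of the edgeR test. CPM in the bulbectomy comparisons is scaled within tissue and CPM per kilobase over all sham libraries. The tests were tested on simulated data. Alternatives were DESeq2 1.42.0, voom with sample weights (limma 3.58.1), scaling by RLE or by upper quartile, other low-count filters, the replicate number as a block, removal of a length and GC trend (splines with 4 degrees of freedom), leaving out each library, and leaving out hippocampus sham 1 and 2; the trend removal with those 2 left out, and leaving libraries out for the named genes of other lists, were added after seeing the data. The members and lists were chosen with earlier results of these data known. All 27 members are named, and of each further list the genes called in a tissue, otherwise the 2 of smallest p; 1 such gene is not reported here. Same-numbered sham libraries of hippocampus and cerebellum deviated together (correlation of deviations 0.559, 0.442, 0.615, 0.249 and 0.364 for numbers 1 to 5). No other pair of groups with at least 3 shared numbers exceeded 0.1 in every number. Sham hippocampus and cortex gave 0.464, 0.337, 0.61, 0.249 and -0.251 for numbers 1 to 5. Sham cortex and cerebellum gave 0.331, 0.384, 0.558, 0.421 and -0.321. Replicate pairs differed by more than sampling noise (chi-square per degree of freedom of at least 11.8). Exact permutation tests over libraries were used for summed marker levels. Bulbectomy samples numbered 3 of cortex, and 3 and 4 of cerebellum, are not analysed here.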

Additional observations from a re-analysis of the deposited data

Results flagged for a closer look

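Single libraries stood apart from the rest of their group in 17 of 108 sets of 1 member in 1 group, judged by the gap to the nearest library relative to the group's range in groups of 4 or 5; chance flags about 1 in 20 such sets, and members of 1 library are not independent. Cerebellum sham 1 was the highest of its group for 16 members and stood apart in this way for 11. It held 137.3 CPM of Gabrb2 (next 13.4), 111.1 CPM of Gad2 (next 18.5), 107.1 CPM of Slc12a2 (next 20.8), 445.6 CPM of Gabra6 (next 195.4) and 426.1 CPM of Abat (next 236.8). It also held 287.7 CPM of Gabbr2, 66.8 CPM of Gabra2, 63.3 CPM of Gphn, 63.2 CPM of Gabrb1, 17.3 CPM of Gabrg1 and 12.7 CPM of Erbb4. Cerebellum sham 2 stood apart at 1.43 CPM of Lhx6 and 0.357 CPM of Dlx1, on 16 and 4 reads, and cerebellum sham 3 at 108.5 CPM of Slc6a11. Hippocampus sham 1 stood apart at 279.0 CPM of Gad1 and 67.3 CPM of Gad2, and hippocampus bulbectomy 4 at 99.4 CPM of Slc32a1.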

How the results depend on the processing

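In hippocampus the number of members called after bulbectomy was 1 and became 7 with DESeq2 (3 higher and 4 lower, with Gabra6 at 2.98 and an adjusted p of 0.045 among them), 3 with voom, 2 without a low-count filter, 3 with the length and GC trend removed, 2 with that and without sham 1 and 2, 0 with all libraries in 1 fit, and 0 to 4 when 1 library was left out (4 without sham 2, 0 without sham 4 or any bulbectomy library). With the replicate number as a block it was 0 (Abat -1.02, adjusted p = 0.0656), although same-numbered libraries of these groups did not deviate together (-0.343 to 0.032), and of all 13985 genes 76 were called with the block, 938 with DESeq2 (of 15397), 426 with the trend removed and 217 in the main analysis. Calls over all genes were 307 with voom, 230 of 29955 without a low-count filter and 192 of 16564 with all libraries in 1 fit. They were 414 of 14013 with the trend removed and without sham 1 and 2. Without sham 2 there were 477 of 13775, without sham 4 there were 72, and without bulbectomy 1 to 4 there were 50, 30, 69 and 34. In cortex the count of members called was 0 and became 1 with voom (Slc32a1, 0.77, adjusted p = 0.0412) and 0 to 1 when 1 library was left out. Of all 14847 genes 3 were called there in the main analysis and 252 with voom, and 573 of 15103 without bulbectomy 1. Between sham hippocampus and cortex the count of members was 1 and became 3 with DESeq2, with the replicate block and with the trend removed, 0 without hippocampus sham 1 and 2, and 0 to 1 when 1 library was left out. The whole table gave 500 of 15142 genes in the main analysis and 910 of 18348 with DESeq2. It gave 765 with the block, 857 with the trend removed, and 474 of 15752 without hippocampus sham 1 and 2. The counts of the other 2 tissue contrasts, of the cerebellum and of the 3 interactions stayed within 1.5 times under every alternative run. Gabrb2 reversed between sham cortex and cerebellum, from -0.75 to 1.19 (adjusted p = 0.00987) without cerebellum sham 1. The share of Gabra3 in cortex was 43.2% by longest transcript length. Of members called in neither setting, the sign of the fold change differed most without cortex bulbectomy 4 (11 of 24). Hippocampus sham 1, the shallowest library, limits precision for genes under 1 CPM; the causes of these shifts were not tested.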
